A study of Mus musculus with 8 samples.

Results

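The genes described here are the replication-dependent histone genes of mouse MLL-AF9 leukemia cells, chosen as the rows of the count table whose name begins with Hist1h, Hist2h, Hist3h or Hist4h. The table holds 60 such genes among 12823 rows, and the name gives both the chromosomal cluster and the class of the protein. By class these are 5 H1, 15 H2A, 16 H2B, 12 H3 and 12 H4 genes. By cluster they are 50 genes of Hist1 on chromosome 13, 9 of Hist2 on chromosome 3 and 1 of Hist3 on chromosome 11, and 0 rows carry a Hist4h name. All 60 have an entry of the same name in the GRCm38 annotation, and another 10 histone names of that annotation, Hist4h4 among them, were not analysed here. RNA was sequenced from 4 libraries of new AML and 4 of aggressive AML. New AML cells were mouse bone marrow progenitors that had been given the MLL-AF9 fusion gene together with GFP by a retrovirus and had grown into acute myeloid leukemia in sublethally irradiated mice. Aggressive AML cells came from that leukemia after 5 serial transplantations into mice that had not been irradiated. In both groups GFP-positive cells were sorted from the bone marrow of C57BL/6 mice. The labels call the libraries biological replicates and name no separate leukemia for each, so p-values measure the spread between these libraries. The number of transplantations and the irradiation of the earlier hosts differ together between the groups and cannot be told apart.

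Histones package DNA into nucleosomes. H2A, H2B, H3 and H4 form the core around which the DNA winds, and H1 is the linker histone that sits where DNA enters and leaves. The genes of the replication-dependent kind lie in clusters as many near-identical copies without introns, and they are transcribed mainly while DNA is copied. Their mRNAs differ from other coding mRNAs at the 3′ end: a short stem-loop, bound by the protein SLBP, usually takes the place of a poly(A) tail, although polyadenylated forms are known, above all in cells that have stopped dividing. The libraries were made from mRNA captured on poly-T beads, so the values below report what such a capture retained of these transcripts and not the whole histone mRNA of the cells.

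The 3′ stem-loop is printed because it is the element that marks this mRNA family and sets it apart from the rest of a poly-T library. A sequence of 16 bases made of a perfect 6-base stem around a 4-base loop was searched along the whole of each annotated transcript. It was found in 42 of the 60 genes, and its last place in the transcript was used. The transcript models of the other 18 did not hold it, and some of these models stop at the end of the coding sequence. Of 21877 coding genes of the annotation 69 held such a stem-loop, or 0.315%, and 46 of these 69 carried a histone name. The commonest form occurred in 24 genes of the H1, H2A, H2B and H3 classes, the next in 6 H4 genes, and the third in 2 H2B and 3 H3 genes. The DNA letters are given 5′ to 3′ with the stem in capitals and the loop in lower case.
H1, H2A, H2B and H3 form (24 genes, Hist1h1c and Hist1h2ap among them): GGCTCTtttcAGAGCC
H4 form (6 genes, Hist1h4c among them): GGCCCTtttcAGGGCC
H2B and H3 form (5 genes, Hist1h2bb and Hist1h3c among them): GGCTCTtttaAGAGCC
H4 form (2 genes, Hist1h4i and Hist2h4): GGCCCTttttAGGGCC
The remaining 4 forms were held by 5 genes. The annotated transcript ended near the stem-loop in 22 of the 42 genes and ran past it by over 100 bases in 20. In Hist1h1c 840 bases follow it and in Hist1h1d 4884, so in some models the stem-loop lies far from the end.

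Promoters show the letters by which the classes differ at their start. RefSeq promoters of the GRCm38.p6 assembly, from 250 bases before to 50 bases after the start, were found for 55 of the 60 genes. Both strands were searched for the CCAAT box (CCAAT), the TATA element (TATAAA), the octamer (ATTTGCAT) and the H1 box (AAACACA), and none of these motifs is contained in another. CCAAT was present in 85.5% of the histone promoters and in 37.4% of all 32544 promoters. All 5 H1, 15 H2A, 14 H2B and 10 H3 promoters with a sequence held it, against 3 of 11 H4 promoters. TATAAA was found in 56.4% of histone and 13.6% of all promoters. The octamer was held by 6 of 14 H2B and 5 of 15 H2A promoters, by 0 of the other classes, and by 1.75% of all promoters. AAACACA occurred in 4 of 5 H1 promoters and in 7.20% of all promoters. One gene of each class whose level rose is printed below, with the 150 bases that precede its start, 5′ to 3′ on the strand of the gene, and with the searched letters in capitals.
Hist1h1c (chr13:23738657-23738806, plus strand): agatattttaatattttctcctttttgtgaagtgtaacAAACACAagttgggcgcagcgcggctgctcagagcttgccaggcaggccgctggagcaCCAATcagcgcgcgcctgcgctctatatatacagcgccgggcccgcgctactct
Hist1h2ah (chr13:22035644-22035793, minus strand): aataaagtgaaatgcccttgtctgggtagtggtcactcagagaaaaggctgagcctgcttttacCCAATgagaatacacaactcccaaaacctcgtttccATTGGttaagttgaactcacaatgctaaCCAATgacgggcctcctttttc
Hist1h2bb (chr13:23746584-23746733, plus strand): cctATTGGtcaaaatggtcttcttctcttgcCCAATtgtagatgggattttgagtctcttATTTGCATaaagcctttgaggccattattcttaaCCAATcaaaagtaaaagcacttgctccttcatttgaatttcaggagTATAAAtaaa
Hist1h3i (chr13:21783398-21783547, minus strand): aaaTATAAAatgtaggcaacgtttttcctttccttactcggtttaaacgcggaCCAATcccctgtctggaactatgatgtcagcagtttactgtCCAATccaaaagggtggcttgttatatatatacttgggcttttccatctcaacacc
Hist1h4i (chr13:22041363-22041512, minus strand): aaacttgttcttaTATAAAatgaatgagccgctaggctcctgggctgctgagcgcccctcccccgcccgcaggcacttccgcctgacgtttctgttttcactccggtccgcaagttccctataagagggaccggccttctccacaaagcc
The Hist1h2bb window held the octamer at 90 bases before the start and CCAAT at 3 places, 1 of them on the other strand. Hist1h1c held AAACACA at 112 and CCAAT at 54 bases before the start. The Hist1h4i window held no CCAAT.

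Total counts ranged from 7805544 to 9697777 per library, and 1 read was worth 0.103 to 0.130 CPM, a unit in which counts are scaled to a common library total, here with the TMM factors of edgeR applied. The histone genes took 0.0208% to 0.0493% of the counts of a library. Their mean count per gene over the 8 libraries ran from 8.63 to 278, with a median of 34.4, so single-gene values of the lower members rest on few reads. All 60 passed the filter of at least 1 CPM in 4 libraries and were tested among 12494 genes with the quasi-likelihood test of edgeR, two-sided, with Benjamini-Hochberg adjustment over all genes tested and a threshold of 0.05.

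Histone transcripts had higher mean levels in aggressive AML in all 5 classes. Of the 60 genes, 16 rose and 0 fell, beside 8.15% of all tested genes that rose and 10.2% that fell. The 16 genes make up 26.7% of the members. The log2 fold change of aggressive over new AML lay above 0 for 58 members, with a median of 0.60, while over all tested genes 50.1% lay above 0 and the median was 0.00. The middle of the members spanned 0.46 to 0.84 (quartiles), and 28 of 60 had an unadjusted p under 0.05. Among the 5903 tested genes whose mean count lay within the range of the members, 482 rose, or 8.17%. In 13 members the lowest aggressive AML library lay above the highest new AML library, and in 0 members the order was the opposite. The same separation held for 9.76% of all tested genes in the higher direction and 12% in the lower. The count of 16 rested partly on single libraries: it was 6 without new AML replicate 1 and 6 without new AML replicate 4, 10 without aggressive AML replicate 2, 11 without new AML replicate 2 and 11 without aggressive AML replicate 1. The median log2 fold change stayed between 0.49 and 0.79 when each library was left out in turn.

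Summed over the 60 genes, the level in new AML was 207, 302, 376 and 228 CPM in replicates 1 to 4 and in aggressive AML 444, 439, 499 and 346 CPM. The groups overlapped at 1 point, since new AML replicate 3 exceeded aggressive AML replicate 4. The means were 278 ± 76.6 and 432 ± 63.2 CPM (SD, n = 4), a ratio of 1.55. No test was made of sums over chosen genes. In bulk RNA a change in the share of cells that express these genes and a change in RNA per cell cannot be told apart.

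**Figure D1:**
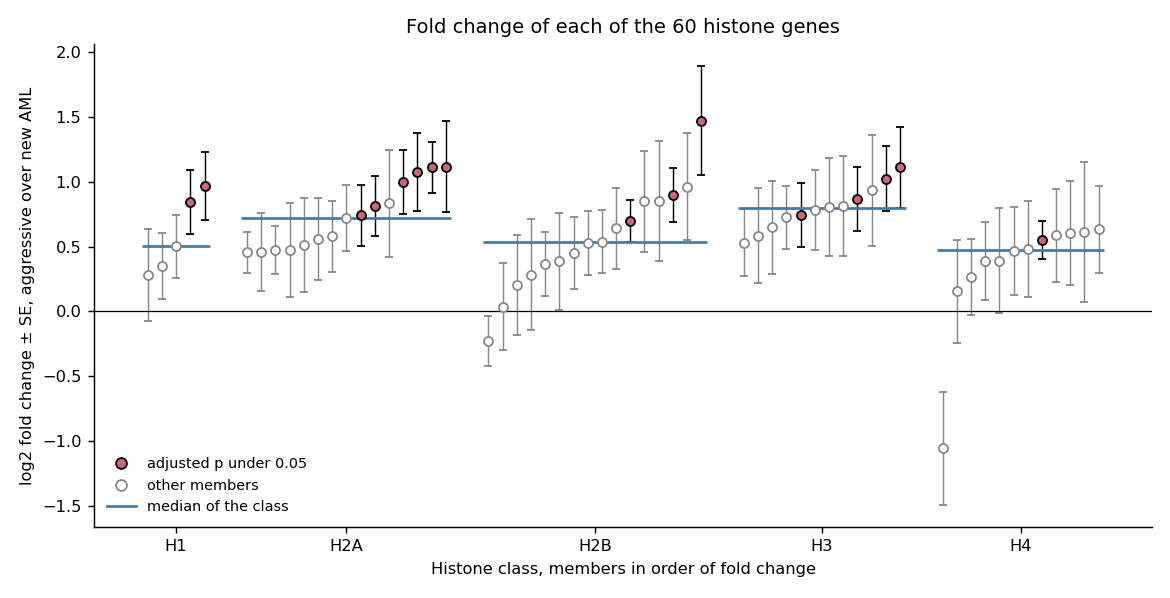
Each point is 1 histone gene, with its log2 fold change of aggressive over new AML on the vertical axis and its standard error as the bar, grouped by class; filled points passed the test and the blue line is the median of the class. All but 2 of the 60 points lie above 0, and the 2 below, Hist1h4k at -1.06 and Hist2h2be at -0.23, did not pass.

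By class, the summed level of H1 averaged 39.7 ± 15.0 CPM in new and 66.3 ± 13.0 CPM in aggressive AML, a ratio of 1.67. For H2A the means were 73.4 ± 19.2 and 122 ± 21.1 CPM (ratio 1.66), and for H2B 76.0 ± 16.9 and 110 ± 14.6 CPM (ratio 1.44). The ratio was 1.71 for H3 and 1.38 for H4. Their place as the highest and lowest of the 5 classes depended on single libraries: without new AML replicate 3 the log2 ratio was 1.00 for H1 against 0.94 for H3, and 0.67 for H2B against 0.69 for H4, and without aggressive AML replicate 2 it was 0.53 for both H2B and H4. In H3 the levels were 25.05, 38.4, 45.4 and 28.0 CPM in new AML and 56.6, 62.3, 68.7 and 46.7 CPM in aggressive AML. H3 was thus the class without overlap between the groups, and in each of the other 4 new AML replicate 3 exceeded the lowest aggressive library. The H4 levels were 42.9, 56.2, 78.8 and 41.2 CPM in new AML against 71.0, 64.1, 95.0 and 71.8 CPM in aggressive AML. Differences between the classes in their ratio were not tested. As shares of the histone total, H3 took 12.3% ± 0.301 of the histone reads in new and 13.6% ± 0.60 in aggressive AML, and H2B 27.6% ± 1.66 and 25.4% ± 0.751 (SD, n = 4).

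**Figure D2:**
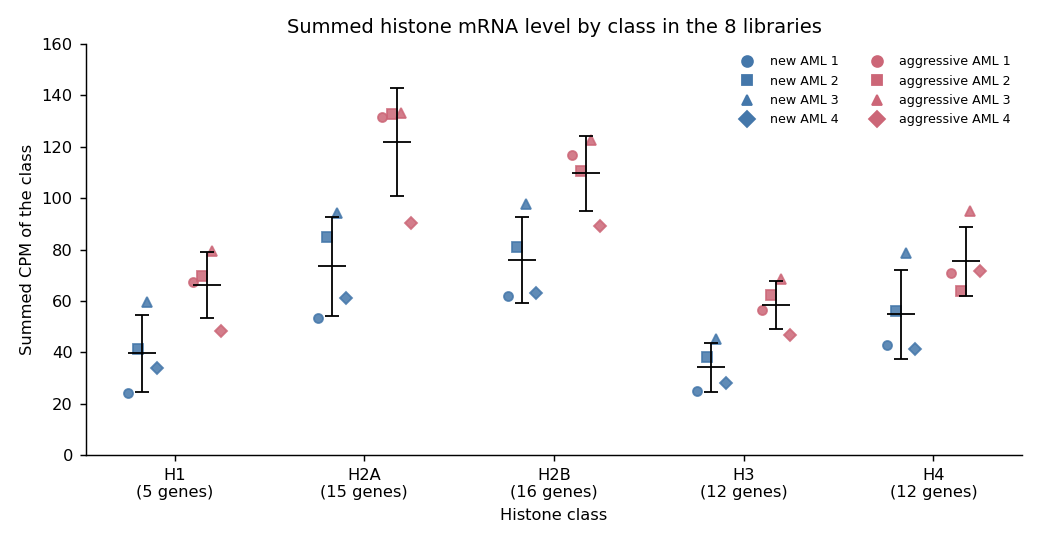
The vertical axis gives the summed CPM of each class in each library, with 1 symbol per replicate number, blue for new and red for aggressive AML, and the black mark and bar are the mean and SD of 4 libraries. Aggressive AML replicate 4 is the lowest of its group for H1, H2A, H2B and H3, and new AML replicate 3 is the highest of its group for all 5 classes.

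Among the linker histones, 2 of 5 genes rose (40%, beside 8.15% of all tested genes). Hist1h1c, the H1.2 linker gene and the most abundant of the class, had 11.2, 18.6, 32.1 and 13.7 CPM in new AML and 40.4, 36.2, 47.3 and 23.9 CPM in aggressive AML. New AML replicate 3 lay among the aggressive values, and the log2 fold change was 0.97 ± 0.27 (SE; edgeR adjusted p = 0.0197). Hist1h1a, which encodes H1.1, rose by a log2 fold change of 0.84 (edgeR adjusted p = 0.0285). The other 3, Hist1h1b, Hist1h1d and Hist1h1e, did not pass and had log2 fold changes of 0.28 to 0.50. Hist1h1c was not called without new AML replicate 1, 2 or 4 or aggressive AML replicate 1 (adjusted p from 0.0505 to 0.0667) nor with DESeq2 (0.0583). Hist1h1a was not called without new AML replicate 1, 2 or 4 or aggressive AML replicate 2 or 3 (0.0656 to 0.0834). Without Hist1h1c the log2 ratio of the summed H1 level was 0.49 in place of 0.74.

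Of the H2A genes 6 of 15 rose (40%, beside 8.15% of all tested genes). All 15 log2 fold changes lay between 0.46 and 1.12. Hist1h2ap had 5.24, 7.49, 8.03 and 5.46 CPM in new AML and 15.8, 15.7, 14.8 and 10.5 CPM in aggressive AML. The groups were apart in this gene, which had the smallest p of the 60, with a log2 fold change of 1.11 ± 0.20 (SE; edgeR adjusted p = 0.00118). Hist1h2ao, a close copy, had 4.62, 6.54, 11.4 and 7.25 CPM in new and 14.1, 15.4, 19.4 and 10.6 CPM in aggressive AML. Here new AML replicate 3 exceeded aggressive AML replicate 4, and the log2 fold change was 1.00 ± 0.25 (edgeR adjusted p = 0.0111). Hist1h2ah was at 1.54, 3.09, 3.01 and 1.67 CPM in new and 5.42, 5.07, 5.83 and 3.30 CPM in aggressive AML, without overlap. Its log2 fold change was 1.07 ± 0.30 (edgeR adjusted p = 0.0218). Hist1h2ac had 3.59, 5.11, 5.69 and 4.12 CPM in new and 8.43, 10.8, 7.13 and 6.15 CPM in aggressive AML. It was also without overlap, with a log2 fold change of 0.82 ± 0.23 (edgeR adjusted p = 0.0235). Hist1h2an and Hist1h2ai rose by 1.12 and 0.74 on the log2 scale (edgeR adjusted p = 0.0387 and 0.0414). Hist1h2ag, the H2A gene of highest mean count, was at 8.11, 12.6, 13.3 and 9.48 CPM in new and 16.4, 17.1, 15.7 and 11.2 CPM in aggressive AML. Its groups overlapped at aggressive AML replicate 4, and it did not pass (log2 fold change 0.47 ± 0.19, edgeR adjusted p = 0.0935). Hist1h2ap and Hist1h2ao remained called with any single library left out. The calls of Hist1h2ah, Hist1h2an, Hist1h2ac and Hist1h2ai did not hold without new AML replicate 1 or 4 (adjusted p from 0.0650 to 0.117). Without aggressive AML replicate 1, Hist1h2ah, Hist1h2ac and Hist1h2ai were not called (0.0534 to 0.0962), without aggressive AML replicate 2, Hist1h2ac and Hist1h2an (0.0901 and 0.0894), without aggressive AML replicate 3, Hist1h2an and Hist1h2ai (0.105 and 0.103), and without new AML replicate 2, Hist1h2ai (0.0717). Hist1h2ag was called without aggressive AML replicate 4 (0.0357).

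Of the H2B genes 3 of 16 rose (18.75%, beside 8.15% of all tested genes). Hist1h2bb showed the largest log2 fold change of the 60, with 1.13, 2.62, 3.57 and 0.334 CPM in new and 4.94, 6.01, 5.31 and 4.89 CPM in aggressive AML. The 4 aggressive libraries were close together while the new AML libraries spread widely, and the log2 fold change was 1.47 ± 0.42 (SE; edgeR adjusted p = 0.0242). Hist1h2bj had 6.06, 5.83, 9.82 and 5.35 CPM in new and 12.05, 14.8, 13.2 and 10.5 CPM in aggressive AML. New AML replicate 3 came near the lowest aggressive library without reaching it, and the log2 fold change was 0.90 ± 0.21 (edgeR adjusted p = 0.00732). Hist1h2bc, the most abundant H2B gene by count, had 14.9, 15.3, 17.5 and 16.3 CPM in new and 30.8, 21.7, 32.4 and 19.0 CPM in aggressive AML. The new AML libraries of this gene were nearly level, and the log2 fold change was 0.70 ± 0.16 (edgeR adjusted p = 0.00856). Hist2h2be, whose annotated transcript held no stem-loop, went the other way without passing. It had 11.1, 13.7, 10.4 and 13.0 CPM in new and 7.95, 8.37, 13.9 and 10.9 CPM in aggressive AML, with a log2 fold change of -0.23 ± 0.19 (edgeR adjusted p = 0.433). The 6 H2B genes with an octamer had a median log2 fold change of 0.75 and the 8 without 0.38. This difference was not tested. In each set 1 gene was called. Hist1h2bc and Hist2h2be had no promoter sequence and are in neither set. Hist1h2bj and Hist1h2bc remained called with any single library left out, whereas Hist1h2bb was not called without new AML replicate 1 (adjusted p = 0.0753) or aggressive AML replicate 2 (0.0596).

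Of the H3 genes 4 of 12 rose (33.3%, beside 8.15% of all tested genes). All 12 log2 fold changes lay above 0, from 0.53 to 1.11. Hist1h3i had 1.85, 2.38, 2.79 and 1.90 CPM in new and 4.22, 5.18, 4.54 and 4.21 CPM in aggressive AML. The groups were well apart, with a log2 fold change of 1.02 ± 0.25 (SE; edgeR adjusted p = 0.0112). Hist2h3b had 1.23, 1.43, 2.34 and 1.11 CPM in new and 3.25, 3.53, 3.76 and 2.73 CPM in aggressive AML. It was the Hist2 gene that rose, with a log2 fold change of 1.11 ± 0.31 (edgeR adjusted p = 0.0217). Hist1h3g had 3.49, 3.09, 4.13 and 2.118 CPM in new and 4.94, 6.36, 6.48 and 5.69 CPM in aggressive AML. The groups did not overlap, and the log2 fold change was 0.87 ± 0.24 (edgeR adjusted p = 0.0227). Hist1h3h rose by 0.74 on the log2 scale (edgeR adjusted p = 0.0454). Hist1h3c, the H3 gene of highest count, had 4.52, 7.97, 7.47 and 5.24 CPM in new and 12.8, 7.66, 13.4 and 7.85 CPM in aggressive AML. Its groups overlapped, and it lay just outside the threshold (log2 fold change 0.72 ± 0.24, edgeR adjusted p = 0.0510). Hist1h3i remained called with any single library left out. Hist2h3b was not called without new AML replicate 1, 2 or 4 or aggressive AML replicate 2 (adjusted p from 0.0531 to 0.0681), Hist1h3g not without new AML replicate 2 or 4 or aggressive AML replicate 2 (0.0601 to 0.0698), and with 1 library left out Hist1h3h was called without aggressive AML replicate 4 and in none of the other 7 cases (0.0613 to 0.125). Hist1h3c was called with RLE scaling, without a further filter, at 5 CPM, with DESeq2 and without new AML replicate 3 or aggressive AML replicate 2 or 4 (0.0297 to 0.0497).

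Of the H4 genes 1 of 12 rose, or 8.33%, which is near the share of all tested genes (8.15%) and no result about the class. Hist1h4i had the highest mean count of the 60 genes. Among the 55 members with a RefSeq length it had the highest mean level per length, 80.4 CPM per kilobase of RefSeq transcript. It had 23.5, 27.4, 32.7 and 21.5 CPM in new and 37.0, 31.3, 47.2 and 38.7 CPM in aggressive AML. New AML replicate 3 slightly exceeded aggressive AML replicate 2, and the log2 fold change was 0.55 ± 0.15 (SE; edgeR adjusted p = 0.0163). It was not called without new AML replicate 1 or 4 (adjusted p = 0.0528 and 0.0564). Per length the next of these 55 were Hist1h1c at 38.5 and Hist1h2bg at 28.1 CPM per kilobase, and the median was 7.33. Members without a RefSeq length, such as Hist1h2bc with a mean of 21.0 CPM, were not ranked. The values depend on the length taken: Hist1h1c had 725 bases in RefSeq and 1560 in the annotated transcript searched for the stem-loop. Hist1h4k had the lowest fold change, with 1.64, 1.90, 3.46 and 2.90 CPM in new and 1.20, 0.353, 2.20 and 1.02 CPM in aggressive AML. The groups overlapped and it did not pass (log2 fold change -1.06 ± 0.43, edgeR adjusted p = 0.104), but it was called lower without aggressive AML replicate 3 (adjusted p = 0.0306). The other 10 H4 genes did not pass and lay between 0.15 and 0.63.

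**Figure D3:**
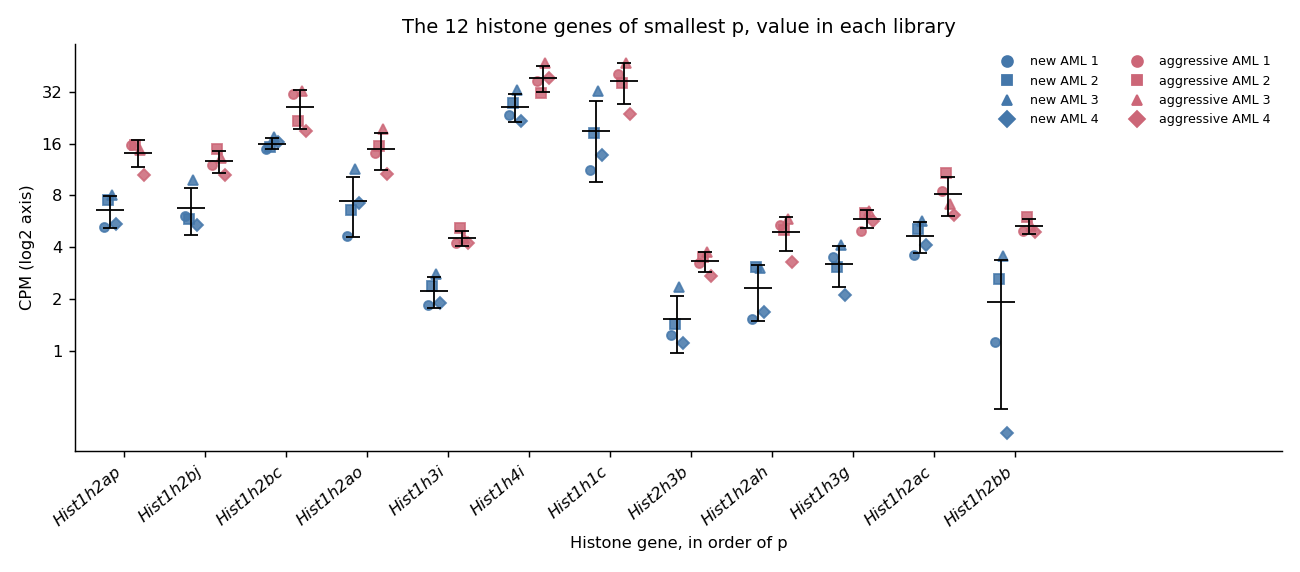
The CPM of the 12 histone genes of smallest p is shown on a log2 axis for each library, with 1 symbol per replicate number, blue for new and red for aggressive AML, and the mean and SD in black. Groups are apart in 9 of these genes and overlap in Hist1h2ao, Hist1h4i and Hist1h1c, where new AML replicate 3 reaches into the aggressive values. The genes were chosen by p in these same libraries, so their separation is no further support. Of all 60 members 13 were apart in the higher direction, beside 9.76% of all tested genes.

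By cluster, Hist1 averaged 243 ± 71.3 CPM in new and 385 ± 55.6 CPM in aggressive AML, a ratio of 1.58. In it 15 of 50 genes rose, or 30%, beside 8.15% of all tested genes. Hist2 averaged 34.0 ± 6.74 and 45.4 ± 7.59 CPM, a ratio of 1.33. In it 1 of 9 genes rose, or 11.1%, which is near the share of all tested genes and no result about the cluster. Without its most abundant member, Hist2h2be, the log2 ratio of Hist2 was 0.68 in place of 0.42. Hist3 was represented by Hist3h2ba alone, at 1.13, 1.19, 1.00 and 0.334 CPM in new and 0.964, 1.18, 1.43 and 0.911 CPM in aggressive AML. It overlapped between the groups and did not pass (log2 fold change 0.28 ± 0.43, edgeR adjusted p = 0.691). Hist1 lies on chromosome 13 in 2 blocks that are 1487374 bases apart, from 21715763 to 22043676 with 23 of the genes and from 23531050 to 23764406 with 27 (GRCm38). In the first block 9 genes rose (39.1%) and the summed level went from 115 ± 32.1 to 181 ± 22.8 CPM, a ratio of 1.57. In the second 6 rose (22.2%) and the summed level went from 128 ± 39.3 to 205 ± 33.2 CPM, a ratio of 1.60. Both shares stand beside the same 8.15%. Differences between clusters and blocks were not tested.

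Within each group the histone genes tended to rank the libraries alike. New AML replicate 3 was the highest of its group in 43 of the 60 genes, and replicates 1 and 4 were the lowest in 32 and 24. Aggressive AML replicate 3 was the highest of its group in 34 genes and replicate 4 the lowest in 36. The median coefficient of variation was 35.4% over the members in new AML and 24.4% in aggressive AML. Over the 5903 tested genes whose mean count lay within the members' range it was 16.7% and 19.8%. Those genes were not matched to the members on count, and the members had a median mean count of 34.4 in a range of 8.63 to 278. The genes share their libraries, so these counts describe 8 libraries and not 60 independent observations.

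**Figure D4:**
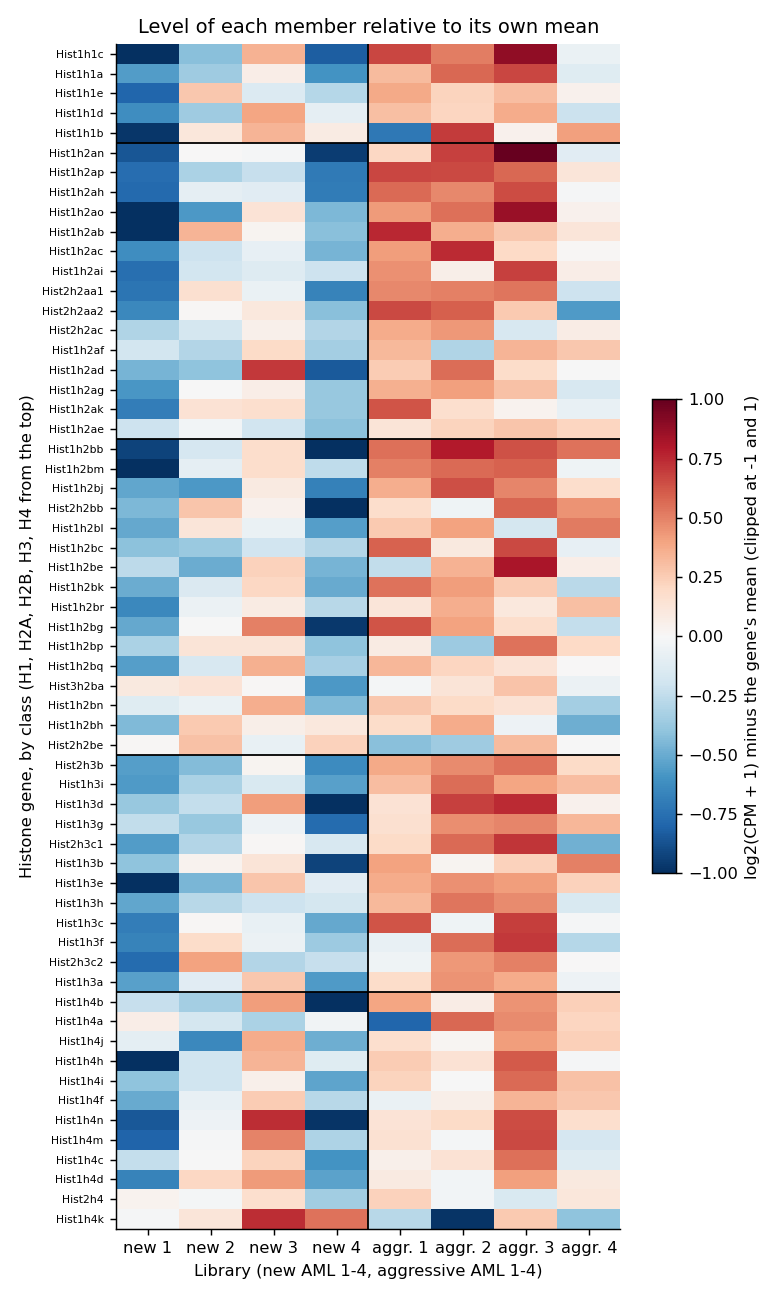
Each row is a histone gene and each column a library, and the color is log2(CPM + 1) minus the mean of the gene over the 8 libraries, clipped at -1 and 1. Red prevails in the 4 aggressive columns and blue in new AML replicates 1 and 4, while new AML replicate 3 is pale or red in most genes.

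Copies of histone genes resemble each other, which limits what can be said of 1 gene. When the annotated transcripts were cut into windows of 50 bases, 57 of the 60 genes shared at least 1 window with another gene, and 32 shared at least 50% of them. Hist1h2ap shared 93.1% of its windows, Hist2h3b 100%, Hist1h1c 8.54% and Hist1h1a 0%. How reads with several matches were treated is not given in the sources used here, so reads of near-identical copies could have been divided among them. Of the 32 genes that shared most, 10 rose (31.25%) and the median log2 fold change was 0.73. Of the 28 others, 6 rose (21.4%) and the median was 0.54. Another annotated gene overlapped 21 members, and the strand setting of the counting is not stated either. By the annotated end of the transcript, 5 of 22 genes rose whose transcript ends near the stem-loop (22.7%), 3 of 20 whose transcript runs past it (15%) and 8 of 18 without a stem-loop in the annotated transcript (44.4%). Over all tested genes 8.15% rose. Neither split was tested.

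Of 26 genes for histone gene transcription and 3′ end processing 1 rose and 1 fell, beside 8.15% and 10.2% of all tested genes, and the median log2 fold change was -0.10. At 26 genes such counts lie near or under that background and show nothing particular to the list. Slbp, which encodes the stem-loop binding protein, was at 177 ± 16.9 CPM in new and 166 ± 4.80 CPM in aggressive AML (SD, n = 4) and did not pass (edgeR adjusted p = 0.437). Npat, the coactivator that cyclin E-CDK2 phosphorylates at histone loci, was at 41.0 ± 6.11 and 45.0 ± 6.94 CPM (edgeR adjusted p = 0.520). Neither Casp8ap2, Hinfp, which acts at H4 promoters, nor the U7 snRNP subunits Lsm10 and Lsm11 passed, with log2 fold changes from -0.23 to 0.03. Zfp473, a further processing factor, was at 6.15 ± 1.44 and 3.87 ± 1.68 CPM (edgeR adjusted p = 0.164). Zcchc11, which adds uridines to histone mRNA among other RNAs, rose from 22.8 ± 2.36 to 38.0 ± 5.37 CPM (log2 fold change 0.73 ± 0.12, SE; edgeR adjusted p = 0.000831). Nfya, a subunit of the factor that binds CCAAT, fell from 209 ± 15.7 to 138 ± 25.1 CPM (log2 fold change -0.60 ± 0.11, edgeR adjusted p = 0.00170). Both genes were without overlap between the groups.

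Among 19 histone chaperones and deposition factors 3 rose and 0 fell, beside the same 8.15% and 10.2% of all tested genes, and the median log2 fold change was 0.02. These were Chaf1b, a subunit of the CAF-1 chaperone, at 0.36 (edgeR adjusted p = 0.0494), Hira, which deposits H3.3, at 0.28 (adjusted p = 0.0368) and Npm1, a nucleolar chaperone, at 0.28 (adjusted p = 0.0408). The count fell to 0 when any one of new AML replicates 2 and 4 and aggressive AML replicates 1 to 3 was left out. Of 30 S-phase genes 1 rose and 0 fell, with a median of 0.02, beside the same background. It was Prim2, a primase subunit, which went from 80.6 ± 9.08 to 107 ± 12.1 CPM (log2 fold change 0.42 ± 0.10, SE; edgeR adjusted p = 0.00962). The summed level of the S-phase genes was 5675 to 6611 CPM in new and 5715 to 6551 CPM in aggressive AML, so the ranges nearly coincided.

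A further list, of other RNAs that normally lack a poly(A) tail, was put together after values had been seen. It held 11 small structured RNAs of the signal recognition particle, snRNA, RNase P, telomerase, 7SK and U3 kinds and Rnu73b, and 9 of the 11 were tested. The single call among them, of the U3 RNA Rnu3a (edgeR adjusted p = 0.0169), is no support: the gene was at 0.616, 0.595, 0.669 and 0.334 CPM in new and 2.05, 1.30, 2.20 and 1.14 CPM in aggressive AML, and so passed the filter only through the group where it is high. Summed over the 11, the level was 30.7, 59.3, 74.1 and 111 CPM in new and 108, 88.4, 115 and 125 CPM in aggressive AML. New AML replicate 4 thus lay among the aggressive libraries for this sum, with Rn7s1 and Rn7s2 at 53.4 and 41.0 CPM in that library. For histone genes the same library was the second lowest of all 8. The log2 fold change lay above 0 for 9 of the 9 tested RNAs, Rnu3a included, with a median of 0.57. The part that retention of RNA without a poly(A) tail had in the histone result was not tested.

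**Figure D5:**
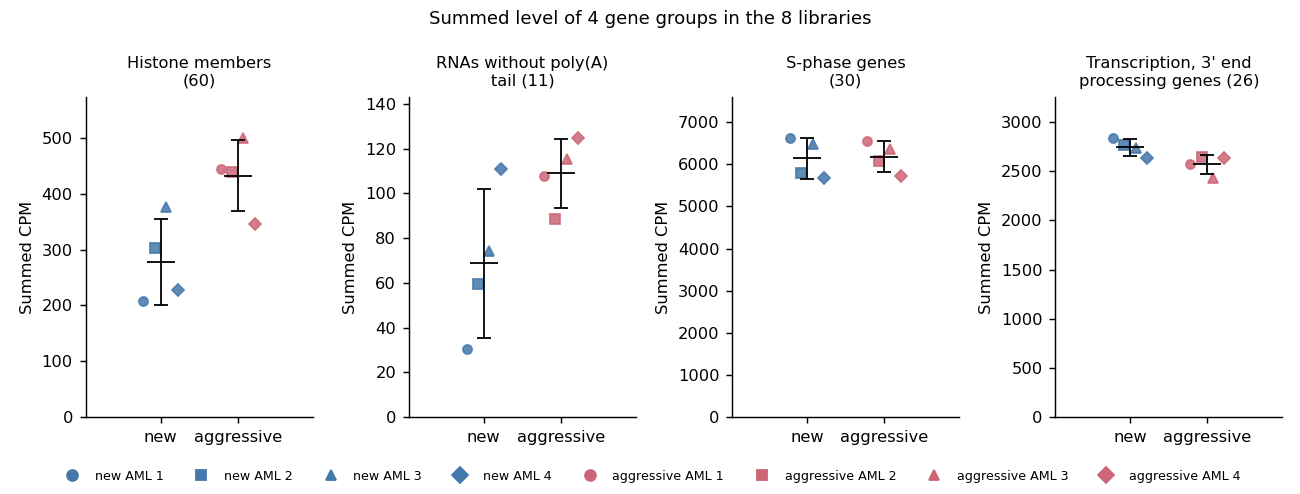
The 4 panels give the summed CPM of the 60 histone genes, of the 11 RNAs without a poly(A) tail, of the 30 S-phase genes and of the 26 transcription and 3′ end processing genes, with 1 symbol per library and the mean and SD in black; each panel has its own axis from 0. The first 2 panels have higher means in aggressive AML, and the panel of S-phase genes shows ranges of 5675 to 6611 and 5715 to 6551 CPM that nearly coincide.

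The labelled cell type was checked on marker lists, whose counts stand beside 8.15% of all tested genes that rose and 10.2% that fell. Of 10 markers of MLL-AF9 myeloid leukemia all were in the table, at 7194 to 7791 CPM in sum in new and 6862 to 9491 CPM in aggressive AML, and 4 rose while 1 fell. Neutrophil markers summed to 328 to 495 CPM in new and 169 to 220 CPM in aggressive AML, and 8 of 11 fell. Erythroid markers summed to 29.8 to 108 CPM in new and 10.02 to 54.7 CPM in aggressive AML, and 3 of 8 tested fell. Macrophage markers summed to 63.1 to 109 and 37.5 to 56.9 CPM, with 1 of 2 tested lower. Of 6 B-cell, 6 T-cell and 4 NK-cell markers 3, 1 and 1 were rows of the table. Of each kind 1 was tested, and the NK-cell marker, Nkg7, was called higher. All cells had been sorted as GFP-positive, and the part that these marker differences had in the histone result was not tested.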

How the data were processed

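GFP-positive leukemia cells were sorted, mRNA was purified on poly-T beads and both fragment ends were sequenced. The authors aligned reads to mm10 with HISAT2 and counted them per gene with Rsubread; the annotation, strand setting and treatment of reads with several matches are not given in the sources used here. Although CPM appears in its name, the deposited table contains whole numbers whose totals differ by library, and these were taken as raw counts (0 rows without a gene name). Its authors left out genes under 1 CPM.

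Genes reaching 1 CPM in 4 or more libraries were tested with edgeR 4.0.16 (R 4.3.3), with TMM scaling and the group as the only term. Standard errors were derived from F statistics. Class, cluster and S-phase sums use TMM-scaled CPM. Alternatives were RLE scaling, no further filter, at least 5 CPM, DESeq2 1.42.0, limma 3.58.1 on log2(CPM + 1), a replicate block and leaving out each library. Values in every library are given for up to 12 called members of smallest p and the most abundant member of each class and cluster; Hist1h4k was added after its values were seen, and the printed promoters were chosen likewise. The fit was checked on simulated data. The members and gene lists were chosen with earlier results of these data known.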

Additional observations from a re-analysis of the deposited data

Results flagged for a closer look

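In 86 groups of 4 values (2 for each named gene and each sum), 3 had a library far from the other 3 of its group by Dixon's criterion for a gap relative to the range, and chance would give about 4.3. The summed H2A level of aggressive AML replicate 4 was 90.3 CPM, against 132 to 133 CPM in the other 3. Hist1h2bj was at 9.82 CPM in new AML replicate 3, against 5.35 to 6.06 CPM. Hist1h2ai was at 3.18 CPM in new AML replicate 1, against 5.13 to 5.47 CPM.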

How the results depend on the processing

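The count of histone genes called higher was 16 and ranged from 6 to 22 when each library was left out, with 0 to 1 called lower. It was 17 with RLE scaling, 17 without a further filter, 11 of the 25 genes that passed a limit of 5 CPM, 17 with DESeq2 and 16 with limma. Of the calls without new AML replicate 1 and without new AML replicate 4, all 6 were among the 16. Over all tested genes, 650 to 1077 were called higher and 884 to 1304 lower with each library left out. The labels number the libraries in both groups. Deviations from the group means correlated weakly, from -0.06 to 0.18 between same-numbered libraries and from -0.14 to 0.11 between the others. The highest values, 0.18 and 0.12, were those of the same-numbered replicates 4 and 1. A replicate block was used as an alternative alone and gave 15 histone genes higher, 14 of them among the 16. Calls among S-phase genes were 2 higher with RLE scaling, without a further filter, at 5 CPM, with DESeq2 and with the replicate block, and 1 to 2 with each library left out; 1 was called lower with DESeq2 and 1 with limma. Chaperone calls ranged from 0 to 4 with each library left out, and calls among RNAs without a poly(A) tail from 1 to 2, with 0 at 5 CPM and 2 with the replicate block. These last 2 lists, and the sum and median over all members, were put through the alternatives after the data had been seen. The log2 ratios of the class and cluster sums moved by less than 1 SD of the libraries in each alternative that gave a value; Hist3, with 1 gene, gave none without its most abundant member or at 5 CPM. With each library left out, the log2 ratio ran from 0.52 to 0.81 for all members, 0.56 to 1.00 for H1, 0.61 to 0.87 for H2A, 0.44 to 0.67 for H2B, 0.65 to 0.94 for H3, 0.33 to 0.69 for H4, 0.54 to 0.86 for Hist1, 0.32 to 0.53 for Hist2 and 0.02 to 0.44 for Hist3. With each library left out, Hinfp (0.03) ran from -0.021 to 0.092 and Lsm10 (-0.10) from -0.18 to 0.018 and so crossed 0 without passing. With the replicate block Hist1h2ai (adjusted p = 0.0517) and Hist1h3h (0.0672) were not called, and Chaf1b was not called with limma (0.0501). The cause of these changes was not tested. Mean counts under 50 in 40 of the 60 genes limit single-gene values.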
